A study of Mus musculus with 4 samples.

Results

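The genes described here encode the desmosome, and they were taken as the rows of the deposited count table whose symbol is Dsg2, Dsg3, Dsc2, Dsc3, Dsp, Jup, Pkp1, Pkp2, Pkp3 or Perp. All 10 were found among 28440 rows, and 9 of them had enough counts to be tested. Bulk poly-A RNA sequencing covered 4 tumours of the mouse mammary gland, a setting the series relates to triple-negative breast cancer. Their shared genotype is MMTV-R26Met, in which Cre driven by the mouse mammary tumour virus promoter, active mainly in mammary epithelium, switches on a Met receptor transgene at the Rosa26 locus. Every tumour carries this genotype and no untreated, normal or other control tissue is among the 4 libraries, so what can be compared is the level of each gene and its variation among tumours. The labels do not state the animals' age, any treatment, or whether the tumours came from separate mice. The p-values therefore measure only the spread between these 4 samples.

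A desmosome is a spot-like junction that fastens the keratin filaments of neighbouring epithelial cells to each other. Its cadherins, the desmogleins and desmocollins, cross the membrane and bind those of the next cell. Inside the cell, plakoglobin (Jup) and the plakophilins (Pkp) join the cadherin tails to desmoplakin (Dsp), which holds the keratins, and Perp is a membrane protein needed for desmosome assembly in stratified epithelia. Dsg2, Dsc2 and Pkp2 are the forms of simple epithelia such as the luminal layer of the mammary gland, while Dsg3, Dsc3 and Pkp1 are best known from stratified epithelia such as epidermis.

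The libraries held 35220504 to 42809015 counts. No pair of libraries looked like 1 library deposited again, as chi-square over degrees of freedom was between 110 and 325 for the pairs. Values are CPM, counts per 1000000 counts of the library after TMM scaling, and each tumour is 1 library. The labelled tissue carried luminal epithelial transcripts in every tumour, with the 8 luminal markers summing to 2787 to 4670 CPM. The 8 basal and myoepithelial markers summed to 117 to 371 CPM. In tumours 1, 2 and 3 the most abundant of these 8 was Acta2 (72.8, 109 and 112 CPM). Krt5 (0.678 to 4.07 CPM) and Trp63 (1.90 to 7.70 CPM) were low in those tumours. The basal sum therefore does not by itself show basal epithelium in every tumour. The 10 markers of differentiated keratinocytes, the cells of the skin surface, summed to 1.02 to 3.31 CPM, and Krt2, Flg2, Calm4 and Lce1a1 had 0 counts in every library. The 6 striated muscle markers summed to 1007 CPM in tumour 3 and to 5.77 to 7.87 CPM in the others, all 6 being highest in tumour 3. Fibroblast markers summed to 2502 to 3731, leukocyte markers to 233 to 330, endothelial markers to 93.9 to 159 and adipocyte markers to 1.30 to 9.86 CPM.

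Dsg3 was the 1 desmosome gene of the 9 tested whose spread over the tumours exceeded that of genes at a similar level, being high in tumour 3. The test set each gene's spread over the 4 tumours against the trend over all genes (edgeR, negative binomial deviance at the trended dispersion, Benjamini-Hochberg adjusted p under 0.05). It passed 574 of 15808 genes (3.63%). Genes near 0 in any 1 tumour were not tested, so this background leaves them out. With 1 of 9 members passing, the count is too small to set the group apart from that background. The median SD of log2 CPM over the 9 tested members was 0.54, against 0.35 over all genes tested, and the median ratio of highest to lowest tumour was 2.42, against 1.73. At least 2-fold between lowest and highest tumour were 6 of the 9, against 37% of all genes. Members did not share 1 order of tumours. Tumour 3 was highest for 4 of the 9 (Dsg3, Dsp, Jup and Pkp2), against 29.7% of all genes, and lowest for 3 of the 9 (Dsg2, Pkp3 and Perp), against 27.7%. Tumour 2 was highest for 2 (Dsg2 and Perp, against 18.9%), tumour 4 for 2 (Pkp1 and Pkp3, against 28.5%) and tumour 1 for 1 (Dsc2, against 22.9%). The lowest value fell in tumour 4 for 3 members (27.8% of all genes), in tumour 1 for 2 (24.8%) and in tumour 2 for 1 (19.7%).

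**Figure D1:**
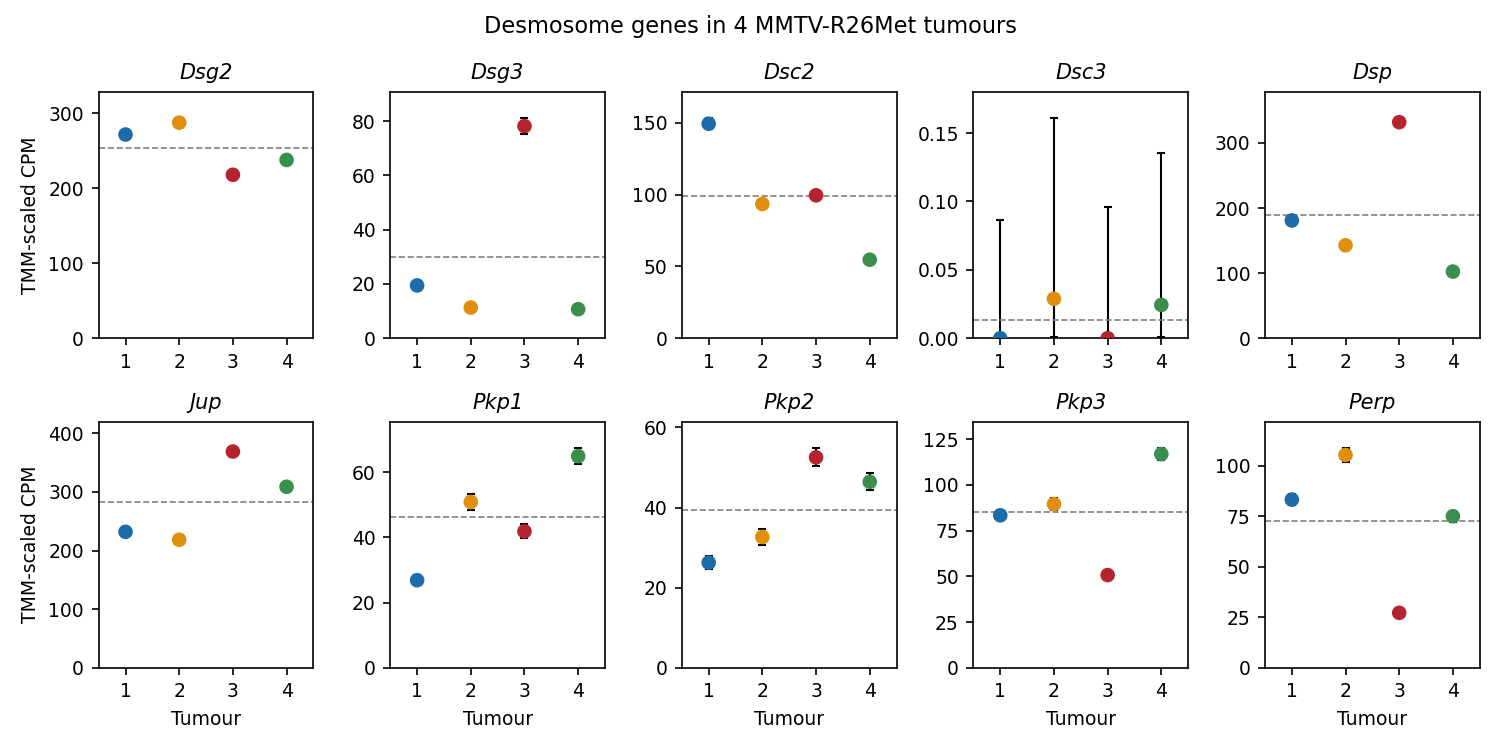
TMM-scaled CPM (vertical axes, each from 0 and with its own scale) of the 10 desmosome genes in tumours 1 to 4. Points are single libraries, bars are exact 95% Poisson intervals of the count and the dashed line is the mean of the tumours. Dsg3 and Dsp are highest and Perp lowest in tumour 3, and Dsc3 lies near 0 in all.

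**Figure D2:**
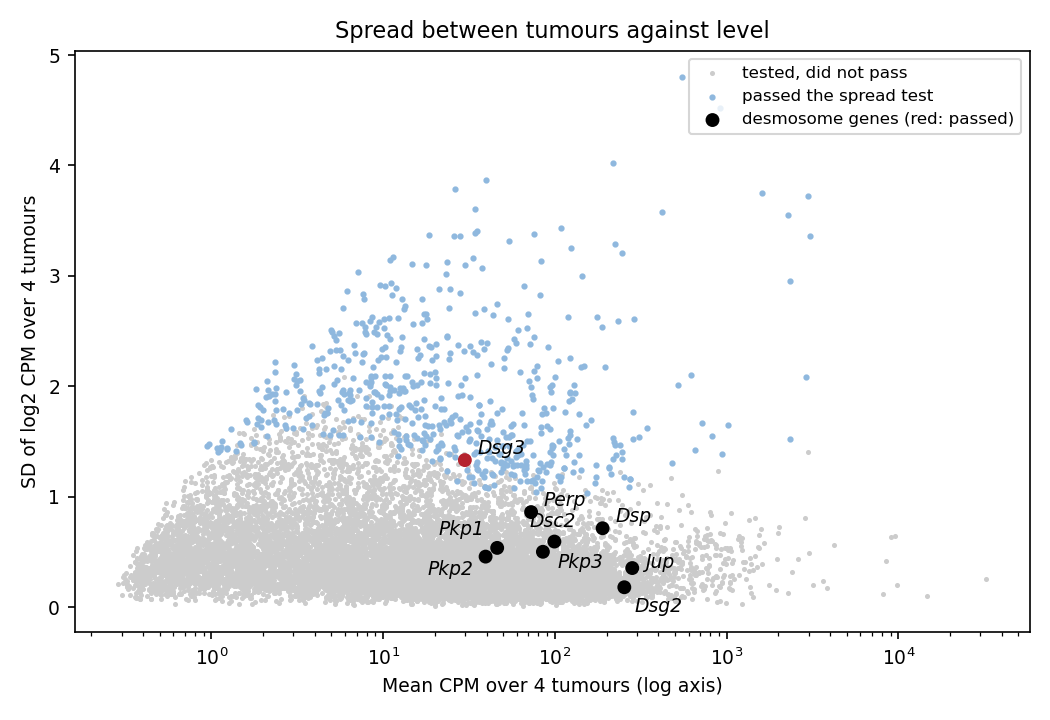
SD of log2 CPM over the 4 tumours (vertical axis) against mean CPM (horizontal log axis) for the 15808 genes tested, with the 9 tested desmosome genes labelled. Blue points passed the spread test, grey points did not, and the labelled genes are black. Dsg3, in red, is the labelled gene that passed, and Dsg2 has the smallest SD of the 9.

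Of the desmogleins, Dsg2 was abundant and even, and Dsg3 was scarcer and uneven. Dsg2 (Entrez gene 13511) stood at 271, 287, 218 and 238 CPM in tumours 1 to 4, a mean of 253 ± 31.5 CPM (SD, n = 4). All 4 values lay within 1.32-fold of each other, and its SD of log2 CPM of 0.18 was at the 15.8th percentile of all genes tested. Dsg3 (Entrez gene 13512), the main autoantigen of the blistering disease pemphigus vulgaris, had 19.4, 11.3, 78.1 and 10.7 CPM in tumours 1 to 4, a mean of 29.9 ± 32.4 CPM (SD, n = 4). Tumour 3 stood 4.02-fold above tumour 1, the next highest, and 7.31-fold above tumour 4, whereas tumours 2 and 4 were within 1.06-fold of each other (edgeR adjusted p = 0.00432). These levels came from 827, 392, 2997 and 439 counts, so counting error was small beside the differences.

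The Dsg3 call rested on tumour 3. Without that library the edgeR adjusted p was 1.00, and without tumours 1, 2 or 4 it was 0.00561, 0.0467 and 0.00637. It was also lost with Holm adjustment (adjusted p = 1) and when each gene's quasi-likelihood dispersion was compared with its prior by F (edgeR adjusted p = 0.876), a test that passed 0 of all genes, with 899 at an unadjusted p under 0.05. Over all genes, 1.25% passed with Holm adjustment, 3.64% with RLE scaling, 3.63% with library size alone, 3.79% without the count filter and 4.15% among genes of at least 5 CPM. Leaving out tumours 1, 2, 3 and 4 in turn, 2.58, 2.52, 2.58 and 2.29% of genes passed. DESeq2 marked 0.576% of genes as dispersion outliers, and Dsg3 was not among them. Tumour 3 was also the library with 1007 CPM of striated muscle markers, and their part in its values for Dsg3, Dsp, the plakophilins and Perp was not tested. In bulk tissue, fewer cells of a type and less RNA per cell cannot be told apart.

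Within a library, the share of Dsg3 in the summed counts of Dsg2 and Dsg3 does not depend on scaling between tumours. It was 26.4% in tumour 3 (exact binomial 95% interval 25.6 to 27.2%), against 6.69% in tumour 1 (6.25 to 7.14%), 4.31% in tumour 4 (3.92 to 4.72%) and 3.79% in tumour 2 (3.43 to 4.17%). Only tumours 2 and 4 had intervals that overlapped. These intervals cover counting error only, because each tumour is 1 library. Reads were not counted by molecule, so the intervals may understate even that error. Divided by exon length, the shares became 29.8, 7.83, 5.06 and 4.46% in tumours 3, 1, 4 and 2, and the order of tumours stayed as it was. The mean share was 10.3 ± 10.8% (SD, n = 4), and 4.93% without tumour 3. Dsg2 thus supplied most of the desmoglein counts of this pair in every tumour, including the one where Dsg3 was highest.

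**Figure D3:**
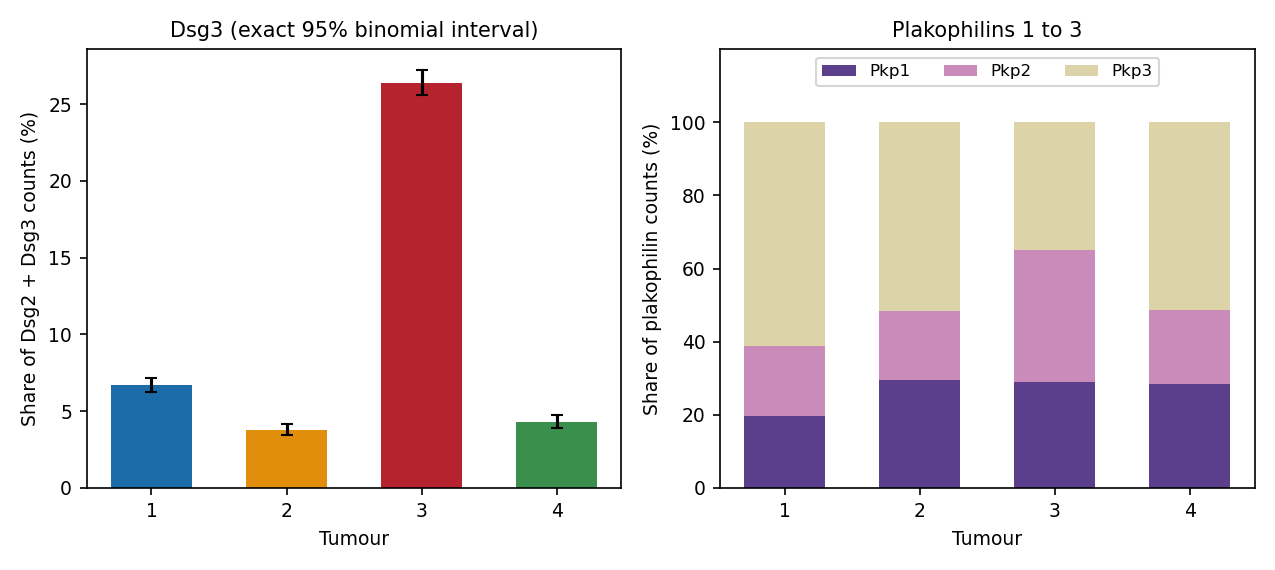
Left, Dsg3 as a percentage of Dsg2 plus Dsg3 counts in each tumour, with exact 95% binomial intervals. Right, Pkp1, Pkp2 and Pkp3 as stacked percentages of their summed counts. Tumour 3 has the largest Dsg3 share (26.4%) and the largest Pkp2 share (36.2%).

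Nearly all counts of the desmocollins came from Dsc2. Dsc2 (Entrez gene 13506) stood at 149, 93.5, 99.5 and 54.7 CPM in tumours 1 to 4, a mean of 99.3 ± 38.9 CPM (SD, n = 4). Tumour 1 was highest and tumour 4 lowest, 2.73-fold apart, while tumours 2 and 3 were close together. This spread did not pass the test (edgeR adjusted p = 1.00). Dsc3 (Entrez gene 13507), the desmocollin of basal keratinocytes, had 0, 1, 0 and 1 counts in tumours 1 to 4 and was too scarce to be tested. A count of 0 allows up to 0.0706 CPM in tumour 1 and 0.0782 CPM in tumour 3 (3 counts). In tumour 3, where Dsg3 was highest, Dsc3 was therefore not detectable at this depth. Per kilobase of exon, Dsg2 and Dsc2 were close in tumour 1 (32.8 and 32.3 CPM per kilobase) and farthest apart in tumour 4 (28.7 and 11.8 CPM per kilobase), with Dsg2 the higher in every tumour. The closeness depends on the length used, as their means per kilobase of coding sequence were 75.3 and 36.7 CPM.

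All desmogleins and desmocollins of the mouse lie in 1 cluster on chromosome 18, from base 19960930 to 20604526 (RefSeq, GRCm38.p6), in the order Dsc3, Dsc2, Dsc1, Dsg1c, Dsg1a, Dsg1b, Dsg4, Dsg3 and Dsg2. Within these 9 genes the counts were concentrated in Dsc2, Dsg3 and Dsg2. Dsc1 had 0 counts in tumours 1, 2 and 3 and 2 counts in tumour 4, Dsg4 had 0 or 1, and Dsg1a had 0 to 4 counts per library. Dsg1c reached 0.341 to 1.93 CPM and was lowest in tumour 4 and highest in tumour 1. Dsg1a, Dsg1b and Dsg1c are close copies of one another, so their separate counts are uncertain. Dsg3 and Dsg2 are direct neighbours, with 16763 bases between them. Yet Dsg3 was 4.02 times as high in tumour 3 as in the next highest tumour, and Dsg2 in tumour 3 was at 0.758 of its highest value elsewhere. The tested genes within 1000000 bases of the cluster numbered 5, all beyond Dsg2, and the Dsc3 side had no tested gene. Of these 5, 1, B4galt6, was highest in tumour 3 (63.4 CPM, against 56.6 CPM in tumour 1). Among the 5, 0 passed the test, with 0 at an unadjusted p under 0.05 (edgeR). No row of the table overlaps Dsg3, and the 1 row that overlaps a member, Gm16090 at Dsg2, held 1 count in all.

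By the size of the difference between centred log2 CPM profiles over the 4 tumours, the genes nearest to Dsg3 were Sytl2, Igf2bp2 and Mfsd2a among the 11004 named genes whose mean reached 5 CPM. Their root mean square differences from Dsg3 were 0.10, 0.12 and 0.12 on the log2 scale. Sytl2, which encodes a protein of vesicle trafficking, had 4.92, 2.71, 16.6 and 2.44 CPM in tumours 1 to 4. Igf2bp2, an RNA-binding protein, had 6.04, 3.81, 23.0 and 2.87 CPM. Mfsd2a, a lipid transporter, had 5.20, 3.37, 20.6 and 3.43 CPM. All 3 were highest in tumour 3, and none passed the spread test (edgeR adjusted p = 0.301, 0.169 and 0.282). With 4 points per profile, such likeness is a description only. Among the other desmosome genes, Dsp came closest to Dsg3, at rank 172 of 11004, and Perp was the farthest, at rank 10593.

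The plaque proteins common to desmosomes, desmoplakin and plakoglobin, were both highest in tumour 3. Dsp (Entrez gene 109620) had 181, 143, 332 and 102 CPM in tumours 1 to 4, a mean of 189 ± 100.2 CPM (SD, n = 4). Tumour 3 was 1.83-fold above tumour 1 and 3.24-fold above tumour 4, but this spread did not pass the test (edgeR adjusted p = 0.764). Its order of tumours, 4, 2, 1 and 3 from low to high, was that of Dsg3. That order is not particular to Dsp and Dsg3. In the other lists Pkp4, Ctnnb1, Vim, Tfap2c and Zeb1 had it too. Jup (Entrez gene 16480), a catenin that also joins classical cadherins, had 232, 218, 369 and 309 CPM, a mean of 282 ± 70.3 CPM (SD, n = 4; edgeR adjusted p = 1.00). Here tumours 3 and 4 were the higher pair, and tumours 1 and 2 lay within 1.06-fold of each other. The ratio of Dsp to Jup CPM was 0.780, 0.654, 0.900 and 0.332 in tumours 1 to 4, so tumour 4 had the least Dsp relative to Jup.

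The RefSeq promoter table (GRCm38.p6) holds 2 of the 10 members, Dsp and Jup. Their upstream stretches are shown because no other member is held there, and not for their level in any tumour. Letters run 5′ to 3′ on the gene's strand and capitals mark matches to GGGCGG or its reverse complement CCGCCC, the GC box bound by SP1-type factors.
Dsp, chr13:38151044-38151293, plus strand: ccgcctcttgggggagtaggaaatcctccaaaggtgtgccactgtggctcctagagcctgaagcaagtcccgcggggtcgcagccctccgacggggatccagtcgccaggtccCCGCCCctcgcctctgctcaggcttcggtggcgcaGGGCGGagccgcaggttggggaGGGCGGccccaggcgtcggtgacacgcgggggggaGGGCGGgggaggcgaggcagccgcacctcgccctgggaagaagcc
Jup, chr11:100397840-100398040, minus strand: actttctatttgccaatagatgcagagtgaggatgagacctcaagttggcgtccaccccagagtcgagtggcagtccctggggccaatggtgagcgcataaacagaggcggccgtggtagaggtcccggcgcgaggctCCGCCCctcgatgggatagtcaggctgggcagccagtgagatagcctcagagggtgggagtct
The Dsp stretch of 250 bases held 4 GC boxes, a motif present in 32.7% of 32851 upstream stretches of that length. The Jup stretch of 201 bases held 1, against 24.8%. Neither held CACCTG (or CAGGTG), the E-box bound by Snail and Zeb repressors of epithelial genes, found in 17.2 and 14.5% of stretches of the same 2 lengths, the TATA box TATAAA (or TTTATA), in 12.4 and 9.18%, or AACCGGTT, the motif of grainyhead-like factors, in 0.116 and 0.0944%. Both strands were searched, and no search motif contains another. A match is a description of letters and not a site.

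Of the plakophilins, which differ in the epithelia they are known from, Pkp3 took the largest share of counts in tumours 1, 2 and 4, and Pkp2 the largest in tumour 3. Pkp1 (Entrez gene 18772) had 26.9, 50.8, 41.8 and 64.9 CPM in tumours 1 to 4, a mean of 46.1 ± 16.0 CPM (SD, n = 4). Pkp2 (Entrez gene 67451) had 26.3, 32.7, 52.5 and 46.4 CPM, a mean of 39.5 ± 12.1 CPM. Pkp3 (Entrez gene 56460), which is found in simple and stratified epithelia alike, had 83.4, 89.5, 50.7 and 117 CPM, a mean of 85.1 ± 27.2 CPM. Tumour 4 was highest for Pkp1 and Pkp3, and tumour 3 was highest for Pkp2 and lowest for Pkp3. The folds between lowest and highest tumour were 2.42, 2.00 and 2.30 for Pkp1, Pkp2 and Pkp3, and none passed the test (edgeR adjusted p = 1.00 for each).

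As shares of the summed plakophilin counts, Pkp3 made up 61.1, 51.7, 35.0 and 51.2% in tumours 1 to 4. Pkp2 made up 19.2, 18.9, 36.2 and 20.3%. In tumour 3 the exact binomial 95% intervals of Pkp2 (34.9 to 37.5%) and Pkp3 (33.7 to 36.2%) overlapped, so which was higher there lay within counting error. Pkp1 made up 19.7% in tumour 1 and 28.4 to 29.4% in the other tumours. Per exon length the Pkp1 share averaged 19.0%, against 26.6% of counts. The exons of Pkp1 cover 4669 bases, against 2918 for Pkp2 and 3065 for Pkp3. Its coding sequence is instead the shortest, at 2184 bases against 2385 and 2466, so this lower share depends on the length used. The Pkp2 share per exon length was 41.4% in tumour 3 and 21.5 to 23.4% in the others. With 1 library per tumour, these shares were not tested between tumours.

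Perp was lowest in tumour 3, where Dsp was highest. Perp (Entrez gene 64058), a transcriptional target of p53 and p63, had 83.2, 105, 27.2 and 75.0 CPM in tumours 1 to 4, a mean of 72.6 ± 32.9 CPM (SD, n = 4). Tumour 3 was 2.76-fold below tumour 4, the next lowest, and stood apart from the range of 75.0 to 105 CPM in the others. The spread did not pass (unadjusted p = 0.0475, edgeR adjusted p = 0.554), although 8.74% of all genes reached an unadjusted p under 0.05. The ratio of Dsp to Perp CPM was 12.2 in tumour 3 and 1.36 to 2.18 in the others. Of 12 other p53 target genes, 0 passed the test, with 0 at an unadjusted p under 0.05 (edgeR) and 0 by DESeq2, and their median SD of log2 CPM was 0.41. Trp53 itself had 74.4 ± 16.9 CPM (SD, n = 4). Of these 12 targets, 8 were lowest in tumour 3, as Perp was, against 27.7% of all genes. Trp53inp1, named after its values were seen, ranged from 111 to 122 CPM outside tumour 3 and stood at 35.7 CPM there, a spread that did not pass (edgeR adjusted p = 0.604). The most abundant of the targets, Plk2, was instead highest in tumour 3 at 224 CPM (90.0 to 188 CPM in the others), and Eda2r, the one with the largest SD, was lowest there at 4.61 CPM and highest in tumour 4 at 17.5 CPM. Trp63, which encodes p63, had 2.85, 7.70, 1.90 and 46.5 CPM in tumours 1 to 4. Perp was lowest in the tumour with the lowest Trp63 but highest in tumour 2, where Trp63 was 7.70 CPM.

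**Figure D4:**
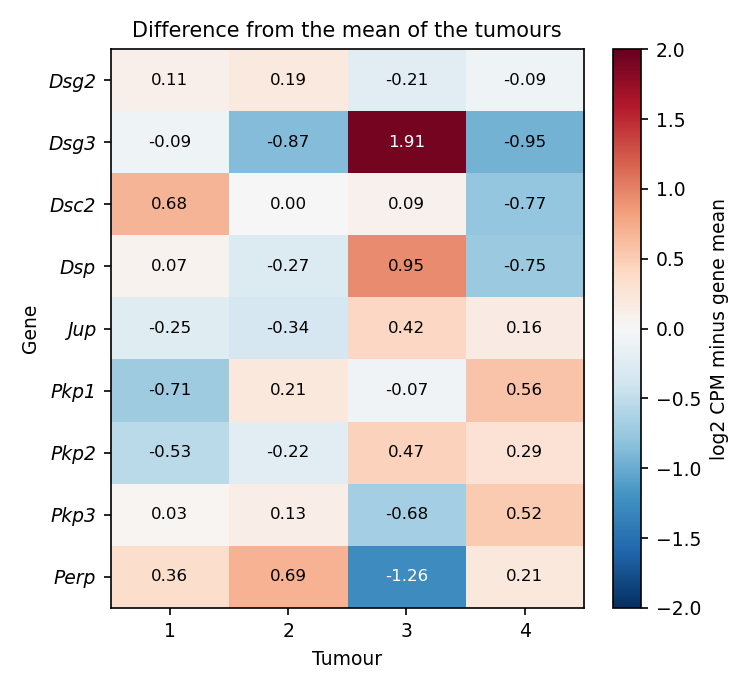
Difference of log2 CPM from the mean of the 4 tumours for the 9 tested desmosome genes (rows) in tumours 1 to 4 (columns), with red above and blue below the mean. Tumour 3 holds the extremes, 1.91 for Dsg3 and -1.26 for Perp.

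Levels of different genes were set side by side only per kilobase of exon (GENCODE M21 basic transcripts, GRCm38), since longer transcripts give more counts. In CPM per kilobase, Jup was highest at 87.6 ± 21.8 (SD, n = 4), followed by Perp at 37.2 ± 16.8, Dsg2 at 30.7 ± 3.82, Pkp3 at 27.8 ± 8.86, Dsc2 at 21.4 ± 8.39 and Dsp at 19.8 ± 10.4. Pkp2 at 13.5 ± 4.15, Pkp1 at 9.87 ± 3.42 and Dsg3 at 4.28 ± 4.64 CPM per kilobase came next, and Dsc3 was last at 0.0025 ± 0.0029. The ranges over tumours of neighbours in this order overlapped in 7 of 9 pairs, the exceptions being Jup over Perp and Dsg3 over Dsc3. Jup was above Perp in 4 of 4 tumours, as was Pkp2 above Pkp1. Pkp3 was above Dsc2 in 2 of 4. Per kilobase of coding sequence alone, Perp reached 125 and Jup 126 CPM, so the gap between these genes depends on the length used. On that length some neighbours changed places. Mean Pkp1 (21.1) was above Pkp2 (16.5), and mean Dsc2 (36.7) was above Pkp3 (34.5 CPM per kilobase).

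Relative to 4 epithelial genes (the mean log2 CPM of Epcam, Krt8, Krt18 and Cdh1), Dsg3 and Perp kept tumour 3 as their extreme. That reference was 0.38 below its mean in tumour 1 and 0.30 above it in tumour 4 on the log2 scale. Dsg3 stayed highest in tumour 3, at 2.01 above its mean, with an SD of 1.50, and Dsp, Jup and Pkp2 were also highest there. Perp stayed lowest in tumour 3, at 1.16 below its mean, and Pkp3 was lowest there too. The highest tumour of Dsg2, Pkp3 and Perp became tumour 1, where it had been tumour 2, 4 and 2. The lowest tumour became 4 for Dsg2 and 2 for Pkp2, where it had been 3 and 1. The SD of log2 values moved by more than 1.5 times for Dsg2, from 0.18 to 0.37, and for Pkp1, from 0.54 to 0.24. For Dsc2 it went from 0.60 to 0.88.

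The other genes of junctions and filaments, in lists that fit the desmosome, mostly did not pass the test either. Of 9 further desmosomal and cornified-layer junction genes, 4 could be tested and 0 passed, with 1 at an unadjusted p under 0.05 (edgeR) and 0 by DESeq2. The most abundant of them was Pkp4, a plakophilin relative of adherens junctions at 148, 142, 233 and 115 CPM in tumours 1 to 4. The member of this list with the largest SD, Dsg1b, had 0 to 16 counts. Among 10 adherens junction genes, 1 passed. That gene was Cdh2, which encodes N-cadherin, at 40.6, 2.16, 14.0 and 2.68 CPM (edgeR adjusted p = 0.000314, and 0.298 without tumour 1). Ctnnb1, the beta-catenin gene and close relative of Jup, was the most abundant of that list at 898 ± 117 CPM (SD, n = 4). The ratio of Jup to Ctnnb1 CPM was lowest in tumour 1 (0.238) and highest in tumour 4 (0.402). Of 10 enzymes that act on desmosomal proteins or supply their calcium, 9 were tested and 0 passed, with 0 at an unadjusted p under 0.05 (edgeR) and 0 by DESeq2. Atp2a2, the calcium pump mutated in Darier disease of the skin, was most abundant at 358 ± 73.1 CPM, and Golga7b, with the largest SD, had at most 0.156 CPM.

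Keratins form the filaments that desmosomes hold, and the listed keratins past the test had their highest value in tumour 4. Outside the lists, Krt23, named after its values were seen, also passed (edgeR adjusted p = 1.83e-14). It went the other way, at 47.1, 41.4, 214 and 0.828 CPM in tumours 1 to 4. Of 7 stratified and stress keratins 3 passed, namely Krt5, Krt14 and Krt6a. Krt5 had 1.58, 4.07, 0.678 and 87.0 CPM in tumours 1 to 4 (edgeR adjusted p = 1.47e-15), and Krt14 had 1.88, 8.62, 28.3 and 89.6 CPM (edgeR adjusted p = 3.86e-08). Both were highest in tumour 4, where the basal markers, which include both genes, summed to 371 CPM. Dsg3 had 10.7 CPM in tumour 4 and 11.3 CPM in tumour 2, a difference within counting error. In tumour 3, where Dsg3 was highest, Krt5 was lowest but Krt14 was above its values in tumours 1 and 2. Krt6a had 1.11, 2.28, 5.97 and 17.2 CPM (edgeR adjusted p = 0.0455). Without tumour 4 Krt5 and Krt6a did not pass (edgeR adjusted p = 0.644 and 0.782), and Krt6a was lost without tumour 1 or 2 as well (0.394 and 0.132), and with library size alone, without the count filter and at a mean of at least 5 CPM (0.0501, 0.143 and 0.109). Of 4 simple epithelial keratins 1 passed, Krt19 at 11.6, 147, 40.8 and 370 CPM (edgeR adjusted p = 1.96e-08), whereas Krt8 was even at 1071 ± 200 CPM (SD, n = 4). Of 6 cytolinker and other filament genes 1 passed, the muscle filament gene Des, at 124 CPM in tumour 3 and 4.49 to 6.81 CPM elsewhere (edgeR adjusted p = 3.77e-12, and 1.00 without tumour 3). The most abundant of that list, Dst, had 527 to 1243 CPM and was lowest in tumour 4.

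Of 17 transcription factors of epithelial junction genes, 2 passed, Trp63 and Twist1. Trp63 was highest in tumour 4 (edgeR adjusted p = 3.80e-05, and 1.00 without tumour 4), so it took the order of Krt5 and not that of Dsg3. Twist1, a factor of mesenchymal states, had 4.75, 0.981, 16.8 and 1.05 CPM in tumours 1 to 4 (edgeR adjusted p = 0.00767) and was highest in tumour 3 beside Dsg3 and Dsp. Leaving out tumour 2 or 3 ended that call (edgeR adjusted p = 0.113 and 0.428). Tfap2c, the most abundant of these factors, had 158, 86.5, 185 and 73.6 CPM, highest in tumour 3, and did not pass (edgeR adjusted p = 1.00).

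**Figure D5:**
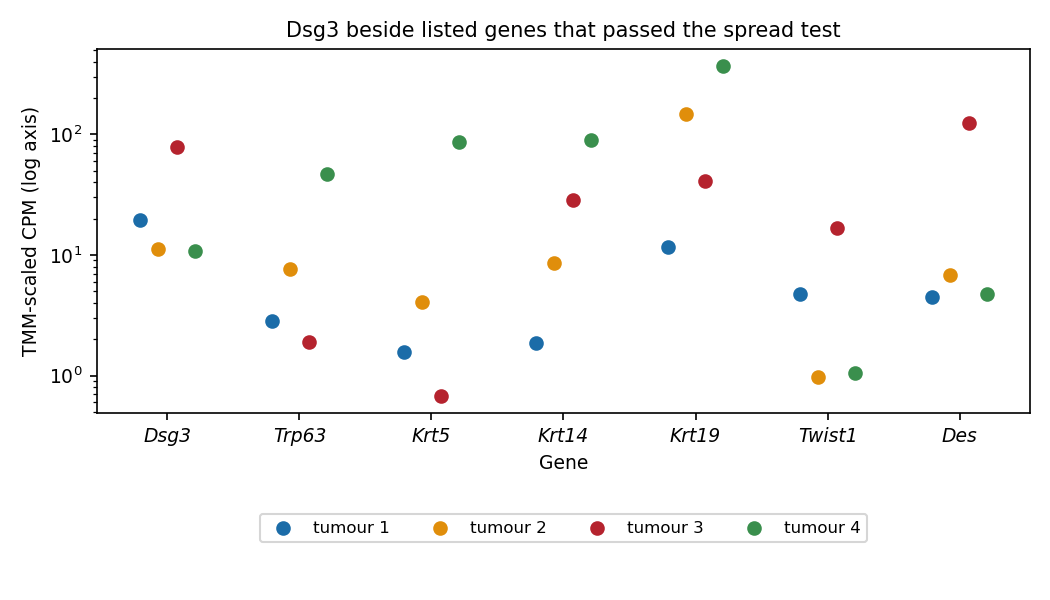
TMM-scaled CPM (log axis) of Dsg3, Trp63, Krt5, Krt14, Krt19, Twist1 and Des in each tumour, 1 point per library. Dsg3, Twist1 and Des are highest in tumour 3, and Trp63, Krt5, Krt14 and Krt19 in tumour 4.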

How the data were processed

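Poly-A RNA of 4 tumours was read from both ends (Illumina NovaSeq X), per the labels' protocols. Gene counts were deposited by the authors in 1 table, as whole numbers without normalization. The submitters' processing notes name FastQC and the builds GRCm38 and mm10. The aligner, counter, annotation and strand setting were not given in the sources used here. Columns were assigned by tumour number, and 0 columns of sample values were left unused. Of 28440 Entrez gene numbers, 24480 (86.08%) matched a RefSeq symbol (GRCm38.p6). The others stayed in library sizes and tests.

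Analyses used R 4.3.3 with edgeR 4.0.16. Tested genes passed filterByExpr with 1 group (count minimum 10, total 15), and 15808 remained. With 1 group, the minimum (as CPM at the median library size) had to be met in all 4 libraries. Genes near 0 in any tumour were thus left out of the tests and of the shares over all genes. Acta1, with 16, 8, 13166 and 9 counts in tumours 1 to 4, was 1 such gene. With 1 group there is no contrast, so the quasi-likelihood test of a contrast does not apply. An intercept-only fit at the trended dispersion (common coefficient of variation 0.411) gave a deviance compared with chi-square, Benjamini-Hochberg adjusted over all genes at 0.05. Log2 CPM used a prior count of 2. DESeq2 1.42.0 served as an alternative.

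The members and all lists were chosen with earlier results of these data known. Named are all members, and of each of 8 other lists (75 genes) those past the test, the most abundant and the one with the largest SD, plus the 3 genes nearest in profile to members with an SD of at least 1. Other list genes, Krt23, and genes of the chromosome 18 cluster and its flank, were named after their values were seen.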

Additional observations from a re-analysis of the deposited data

Results flagged for a closer look

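For these values 1 tumour lay far from the other 3, judged by the gap to the nearest value over the whole range. With normally distributed values such a gap would be expected by chance in about 1 in 20 groups, and several of these values come from the same library. The number of values screened is not given here, so the 8 flagged cannot be set against that rate. The gaps were taken on CPM or percentages. On the log2 scale 4 of the 8 values keep such a gap, namely the Pkp1 and Pkp2 shares, Des and the muscle markers, while Dsg3, its share, Krt5 and Trp63 do not (0.70, 0.71, 0.63 and 0.56 of the range, under Dixon's 95% critical value). In tumour 3, Dsg3 had 78.1 CPM (10.7 to 19.4 CPM in the others), the Dsg3 share of Dsg2 plus Dsg3 counts was 26.4% (3.79 to 6.69%), and the Pkp2 share of plakophilin counts was 36.2% (18.9 to 20.3%). In the same tumour Des had 124 CPM (4.49 to 6.81 CPM) and the 6 striated muscle markers summed to 1007 CPM (5.77 to 7.87 CPM). In tumour 1 the Pkp1 share of plakophilin counts was low at 19.7% (28.4 to 29.4%). In tumour 4, Krt5 had 87.0 CPM (0.678 to 4.07 CPM) and Trp63 had 46.5 CPM (1.90 to 7.70 CPM).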

How the results depend on the processing

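Dsg3 remained the 1 desmosome gene past the test under RLE scaling, library size alone, no count filter and a mean of at least 5 CPM. The members past the test numbered 0 with Holm adjustment, 0 with quasi-likelihood dispersions by F, 0 by DESeq2's rule for dispersion outliers, and 0 to 1 when 1 tumour was left out. Over all genes, 895 passed without the filter, 198 with Holm adjustment, 0 by F (899 at an unadjusted p under 0.05), 91 by DESeq2's rule and 367 to 417 without 1 tumour. Adherens junction genes and factors of junction genes past the test numbered 0 and 1 with Holm adjustment. By F each list had 0. DESeq2's rule marked 0 simple keratins, 1 stratified keratin, 0 adherens junction genes and 0 factors. Without 1 tumour, the counts were 1 to 3 for stratified keratins, 1 to 2 for factors, and 0 to 1 for adherens junction and for filament genes. These list counts and the mean levels under other scalings were added after seeing the data. The Pkp1 share moved from 26.6 to 19.0% per exon length, by construction. Mean levels of all 10 members under RLE scaling or library size alone stayed within 1 SD. No paired analysis was possible because there is 1 group. For Dsc3, depth allows only an upper limit.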
